A study of Rattus norvegicus with 4 samples.

Results

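Potassium channel subunits were examined in rat oligodendrocyte precursor cells (OPCs) after silencing of the receptor GPR17. Members were all genes whose symbol, reached through the transcript accession of an array probe, starts with Kcn. Of the 16568 genes that the arrays could name, 91 were members, measured by 130 probes, and they make up the pore-forming and auxiliary subunits of the voltage-gated, calcium- and sodium-activated, inward rectifier and 2-pore-domain potassium channels. The 53 members that were detected, with a probe well above background on 2 or more of the 4 arrays, were tested, out of 11656 genes tested in all.

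Potassium channels let potassium leave the cell along its gradient and so set the resting potential and shape the return to rest after depolarization. OPCs are known for large outward voltage-gated currents of the delayed rectifier and A type, which diminish as the cells mature, while mature oligodendrocytes and astrocytes carry inward rectifier currents that take up potassium. GPR17 is a G protein-coupled receptor of OPCs and pre-oligodendrocytes, and its activation has been linked to outward potassium currents in OPCs.

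The OPCs came from the pooled cerebral cortices of Sprague-Dawley rats at postnatal day 2 and were kept in proliferating medium before they were moved to differentiating medium. At that switch, siGPR17 OPCs received 50 nM of a siRNA pool against rat Gpr17, and siNEG OPCs received a non-targeting RNA pool, both with Lipofectamine RNAiMAX. RNA was taken 48 h later, at day 2 in differentiation, from 2 independent samples of each group, and each sample was hybridized to its own one-color array. The control OPCs were thus transfected as well, and the p-values measure the spread between these samples, since it is not said that they came from separate cell preparations.

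All 4 arrays lay on 1 slide read in 1 scan, with the siNEG arrays in column 4 and the siGPR17 arrays in column 3, so that column and treatment cannot be told apart. The 75th percentile of the signal lay between 564.9 and 624.1 intensity units, between 26997 and 28244 probes per array were well above background, and 0 probes were saturated. The Gpr17 signal itself, in normalized intensity units, was 1107 and 1113 on the siNEG arrays and 652 and 639 on the siGPR17 arrays, a log2 fold change of -0.78 (SE 0.08) with an adjusted p of 0.21 in limma. The number of arrays limits the precision, and an exact permutation test of 2 against 2 arrays cannot give a two-sided p under 0.333. Below, signals are linear intensities scaled to the 75th percentile of each array, fold changes are siGPR17 over siNEG on the log2 scale with the standard error (SE) of limma, and adjusted p-values are those of Benjamini-Hochberg over all 28016 tested probes.

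No member passed the thresholds of the study, a fold change of 1.5 with an adjusted p under 0.07. The count was 0 of 53 in limma, as it was for all tested genes (0%), and the adjusted p of the members lay between 0.21 and 0.96. It was also 0 with the methods' t-test, but 2 (both lower, Kcnt1 among them) with normexp background correction and 4 (all lower, with Kcnip1, Kcnq3 and Kcnt1 among them) with the trend and robust options of limma, which called 112 and 184 of all genes. Below these thresholds more members had lower than higher signals. An unadjusted limma p under 0.05 was reached by 16 members lower in siGPR17 OPCs (30.2%, against 8.73% of all tested genes) and by 5 members higher in them (9.43%, against 7.43%). With spike-in scaling the counts were 6 lower and 6 higher. That scaling also moved the median of all tested genes to 0.14. The shares of all genes under it are not given, so that these counts do not settle an excess over them. Among the fits with 1 array left out, the count of 16 fell most without either siGPR17 array, and it rose without the first siNEG array. A group then held 1 sample, and the shares of all genes are not given for these fits.

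In 23 members both siGPR17 arrays lay under both siNEG arrays (43.4%, against 25.3% of all tested genes), and in 11 they lay above them (20.8%, against 28.1%). The log2 fold change was below 0 in 31 of 53 members (58.5%, against 48% of all tested genes). Its median over the members was -0.15, against 0.01 over all tested genes. The median rested in part on the first siNEG array, without which it was -0.04 for the members and -0.02 for all genes. Under normexp the same medians were -0.01 and 0.03, and scaling on the spike-in probes, which moved the median of all genes to 0.14, gave the members a median of -0.02. Spike-in scaling adds the same amount to the fold change of every gene, so that the members kept their distance from all genes.

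**Figure D1:**
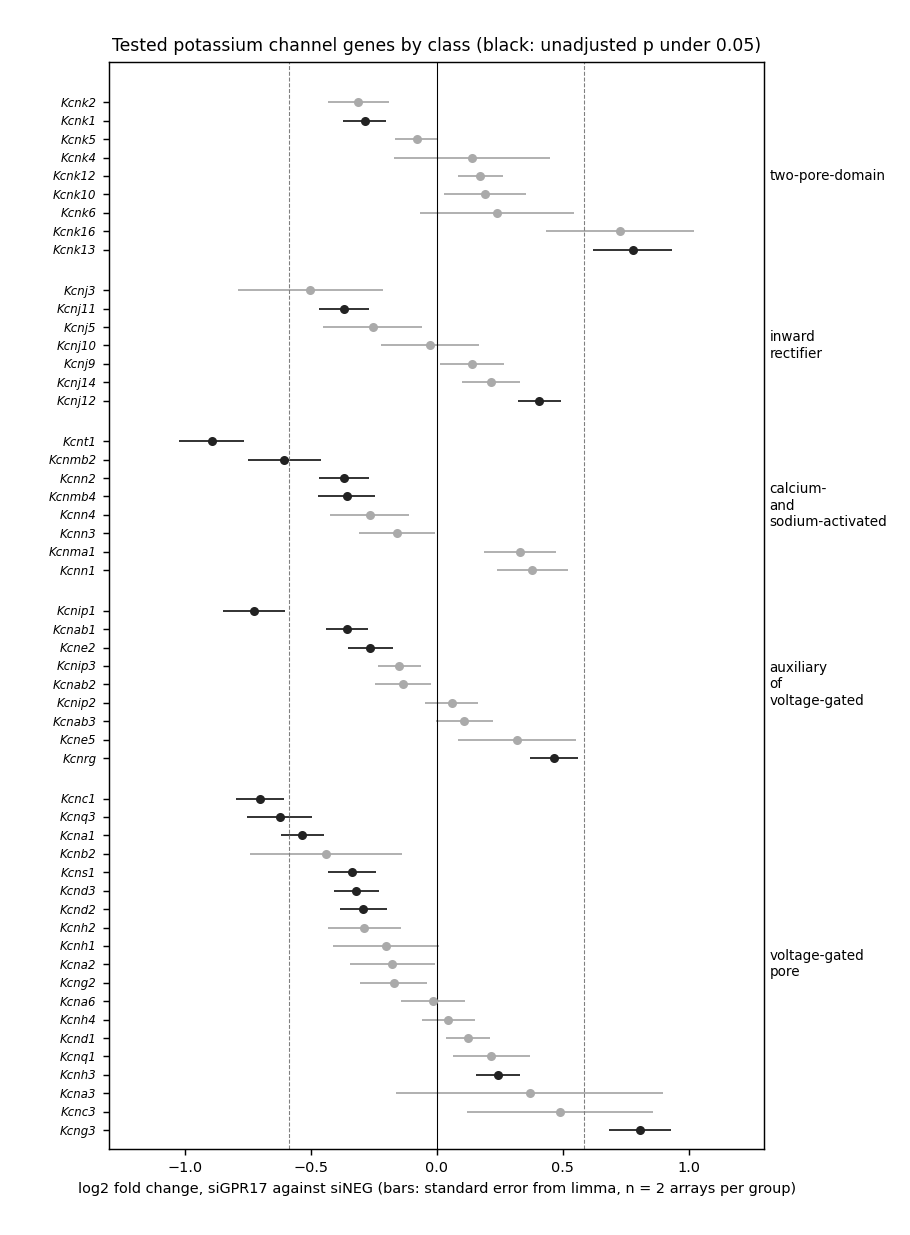
Log2 fold change of siGPR17 over siNEG (horizontal axis, bars are the limma SE, 2 arrays per group) for 52 of the 53 tested members, grouped by channel class, with dashed lines at a fold of 1.5. The 15 members drawn in black on the left and the 5 on the right had an unadjusted p under 0.05, and 30 of the 52 points lie below 0.

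Both a fold of 1.5 and an unadjusted p under 0.05 were met by 6 members lower in siGPR17 OPCs (11.3%, against 1.98% of all tested genes) and by 2 members higher in them (3.77%, against 1.68%). Among the lower ones, Kcnt1, Kcnip1, Kcnc1, Kcnq3 and Kcnmb2 belong to 3 of the classes. The higher ones were Kcng3 and Kcnk13. The total of 8 was 2 under normexp (2 lower and 0 higher) and 5 under spike-in scaling (2 lower and 3 higher). Spike-in scaling moved every gene up alike, to a median of 0.14 over all tested genes. The shares of all genes under these 2 alternatives are not given, so that the counts do not settle an excess over them. Where a signal was dim, normexp gave a smaller fold change: -0.09 for Kcnc1, 0.18 for Kcng3, 0.30 for Kcnk13, -0.32 for Kcnmb2 and -0.47 for Kcnip1.

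**Figure D2:**
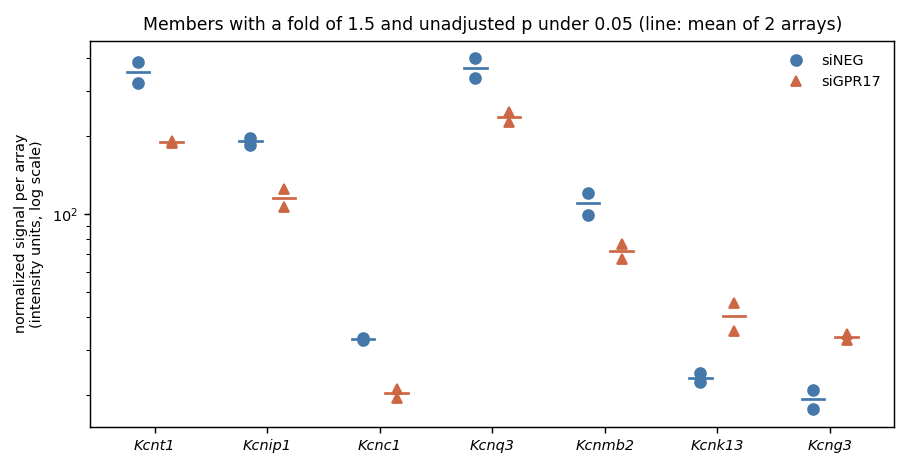
Normalized signal on each array (vertical log axis, intensity units) of 7 of the 8 members with a fold of 1.5 and an unadjusted p under 0.05, with siNEG arrays as circles, siGPR17 arrays as triangles and the mean of 2 arrays as a line. Of the 7, 5 are lower and 2 higher in siGPR17 OPCs. They were picked on these same signals, so that the lack of overlap in all 7 adds nothing to that choice. Of all tested genes, 25.3% were lower and 28.1% higher without overlap.

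To show the sequence upstream of the start of these genes, the 250 bases before it are given for the 4 of the 8 that RefSeq lists with a single start in the assembly GRCr8. Of the other members among the 8, Kcnt1 and Kcnip1 have 2 listed starts each, and Kcnq3 is named only. The sequences run 5′ to 3′ and capitals mark the GC box, GGGCGG on either strand.
Kcnc1 (GRCr8 chr1:106038997-106039246, + strand): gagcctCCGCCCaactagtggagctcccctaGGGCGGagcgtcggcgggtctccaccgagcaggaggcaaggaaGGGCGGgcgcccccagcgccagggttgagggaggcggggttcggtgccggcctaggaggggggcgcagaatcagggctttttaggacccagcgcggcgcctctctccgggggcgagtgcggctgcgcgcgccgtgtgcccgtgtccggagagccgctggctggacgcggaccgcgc
Kcnmb2 (GRCr8 chr2:116599049-116599298, + strand): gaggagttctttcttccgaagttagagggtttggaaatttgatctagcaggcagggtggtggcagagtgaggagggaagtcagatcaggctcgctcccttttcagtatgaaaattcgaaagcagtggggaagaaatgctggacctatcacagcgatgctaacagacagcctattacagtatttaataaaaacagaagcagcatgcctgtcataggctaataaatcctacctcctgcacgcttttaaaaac
Kcng3 (GRCr8 chr6:16803592-16803841, + strand): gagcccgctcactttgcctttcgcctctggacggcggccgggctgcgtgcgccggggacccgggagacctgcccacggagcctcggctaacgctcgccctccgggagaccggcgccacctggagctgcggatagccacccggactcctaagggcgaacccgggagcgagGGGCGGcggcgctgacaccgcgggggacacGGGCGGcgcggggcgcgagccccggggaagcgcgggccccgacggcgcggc
Kcnk13 (GRCr8 chr6:124971559-124971808, + strand): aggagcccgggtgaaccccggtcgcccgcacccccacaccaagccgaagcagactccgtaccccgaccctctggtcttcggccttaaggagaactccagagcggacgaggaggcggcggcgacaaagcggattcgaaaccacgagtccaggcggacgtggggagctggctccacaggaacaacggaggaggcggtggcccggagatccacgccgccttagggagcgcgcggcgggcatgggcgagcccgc

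The windows of Kcnc1, Kcng3 and Kcnk13 were rich in CpG, with 30, 39 and 29 of these dinucleotides, while that of Kcnmb2 held 5, the median over all windows. GC boxes numbered 3 in Kcnc1 and 2 in Kcng3, and these letters were not in the windows of Kcnk13 and Kcnmb2. Of all 33469 windows of this length, 30.5% held a GC box on either strand, against 19 of the 36 windows of tested members (52.8%). All windows include those of genes not detected on the arrays. The sets are thus unlike, also for the motifs below, and no difference can be laid to potassium channel genes. The cAMP response element core TGACG, on either strand, was in 18.2% of all windows and in 4 of the members' 36, and the TATA box TATAAA in 12.9% of all windows and in 0 of the 36. GC boxes were thus found both upstream of a gene lower in siGPR17 OPCs (Kcnc1) and of one higher in them (Kcng3), and a match describes letters only.

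Among voltage-gated pore subunits, 20 of 39 were tested, with a median log2 fold change of -0.19. At an unadjusted limma p under 0.05, 7 were lower and 2 higher (35% and 10%, against 8.73% and 7.43% of all tested genes). Kcna1, which encodes the low-threshold channel Kv1.1, had signals of 1943 and 1888 on the siNEG arrays and 1339 and 1309 on the siGPR17 arrays. Both siGPR17 signals were well under the siNEG signals, with a log2 fold change of -0.53 (SE 0.09, adjusted p 0.21), which stayed between -0.55 and -0.40 over all alternatives.

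Kcnq3 encodes a subunit of the M current, a slow current that is inhibited by receptors coupled to Gq. Its signals were 336 and 401 on the siNEG arrays and 248.8 and 227.9 on the siGPR17 arrays, a log2 fold change of -0.62 (SE 0.13, adjusted p 0.21). The groups did not overlap, and the other tested probe of Kcnq3 gave -0.44. Kcnc1, which encodes the fast-deactivating channel Kv3.1, was dim, with signals of 33.4 and 32.6 against 19.5 and 21.2, and only 1 of the siGPR17 arrays was well above background. Its log2 fold change was -0.70 (SE 0.10, adjusted p 0.21).

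The A-type channel genes Kcnd2 and Kcnd3, which encode Kv4.2 and Kv4.3, differed less. Kcnd2 had signals of 722 and 750 on the siNEG arrays and 622 and 581 on the siGPR17 arrays, a log2 fold change of -0.29 (SE 0.09, adjusted p 0.27). Kcnd3 had signals of 615 and 617 against 507 and 481, a log2 fold change of -0.32 (SE 0.09, adjusted p 0.24). In both genes the groups did not overlap with the brighter probe, and their other tested probes gave -0.19 and -0.26. With spike-in scaling the changes were -0.16 for Kcnd2 and -0.19 for Kcnd3. The third gene of this family, Kcnd1, was not lower, with signals of 103 and 98.3 against 108 and 111 (log2 fold change 0.13, 95% confidence interval -0.11 to 0.36).

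Other Shaker family genes studied in the oligodendrocyte lineage gave no clear direction with their brightest probe. Kcna2 (Kv1.2) had signals of 328 and 371 on the siNEG arrays and 352 and 271 on the siGPR17 arrays, and Kcna6 (Kv1.6) had 211 and 199 against 185 and 222. Both overlapped between groups, with 95% confidence intervals of -0.63 to 0.28 for Kcna2 and -0.36 to 0.33 for Kcna6. The dimmer tested probe of Kcna2 had 85.8 and 105 against 67.1 and 72.0, without overlap (log2 fold change -0.45, interval -0.82 to -0.08). Kcna3 (Kv1.3) was well above background on 1 array of each group only, and its interval of -1.08 to 1.82 gives no direction. Kcna4 and Kcna5 were not well above background on any array.

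Some pore subunits do not conduct alone and modify other pore subunits when they assemble with them. Kcng3, one of these silent subunits, had signals of 20.9 and 17.7 on the siNEG arrays and 34.6 and 32.6 on the siGPR17 arrays, which were both higher. Its log2 fold change was 0.81 (SE 0.12, adjusted p 0.21), and 1 of the siNEG arrays was well above background. Kcns1, another silent subunit, had signals of 21.2 and 22.4 against 16.6 and 17.9 (log2 fold change -0.34, adjusted p 0.25), with 1 of the siGPR17 arrays well above background. Kcnh3, of the ether-à-go-go family, had signals of 115 and 117 against 140 and 135 (log2 fold change 0.24, adjusted p 0.29), while its other tested probe gave -0.0010.

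Of the auxiliary subunits of voltage-gated channels, 9 of 13 were tested, with a median of -0.13. At an unadjusted limma p under 0.05, 3 were lower and 1 higher (33.3% and 11.1%, against 8.73% and 7.43% of all tested genes). Kcnip1, which encodes a calcium-binding protein that brings Kv4 channels to the surface, had signals of 197 and 186 on the siNEG arrays and 126 and 106 on the siGPR17 arrays. Both siGPR17 arrays were below both siNEG arrays, with a log2 fold change of -0.73 (SE 0.12, adjusted p 0.21). Its relatives Kcnip2 (log2 fold change 0.06, interval -0.23 to 0.35) and Kcnip3 (-0.15, interval -0.38 to 0.08) did not reach an unadjusted p of 0.05. Kcnab1, a cytoplasmic beta subunit of Kv1 channels, had signals of 83.3 and 83.0 against 64.8 and 65.1, with close replicates and a log2 fold change of -0.36 (SE 0.08, adjusted p 0.22), which was -0.18 under normexp.

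Kcne2, a single-pass subunit that joins several pore subunits, had signals of 414 and 434 on the siNEG arrays and 356 and 351 on the siGPR17 arrays (log2 fold change -0.26, adjusted p 0.28). Of the 9 tested auxiliary genes, 4 had a log2 fold change above 0. Among these only Kcnrg, whose product hinders the assembly of voltage-gated channels, reached an unadjusted limma p under 0.05. It had 24.8 and 25.0 against 35.9 and 32.9, with no overlap, and a log2 fold change of 0.47 (SE 0.09, adjusted p 0.21), which was 0.22 under normexp.

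Of the calcium- and sodium-activated class, 8 of 11 genes were tested, with a median of -0.31. At an unadjusted limma p under 0.05, 4 were lower and 0 higher (50% and 0%, against 8.73% and 7.43% of all tested genes). Kcnt1 encodes a channel opened by intracellular sodium. Its signals were 320 and 389 on the siNEG arrays and 192 and 189 on the siGPR17 arrays. Its log2 fold change of -0.89 (SE 0.13, adjusted p 0.21) was the lowest of the 53 members with their brightest tested probes. The groups were well apart, and its other tested probe, on another transcript, gave -0.41. Kcnn2, a small-conductance calcium-activated channel, had signals of 781 and 770 against 633 and 570 (log2 fold change -0.37, adjusted p 0.24), and its 3 tested probes ranged from -0.37 to -0.20. Kcnn3, of the same family, had overlapping groups (log2 fold change -0.16, interval -0.57 to 0.25).

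The large-conductance BK channel was represented by its pore gene Kcnma1 and by the beta subunit genes Kcnmb2 and Kcnmb4. Kcnmb2, whose product inactivates the channel, had signals of 121 and 99.4 on the siNEG arrays and 67.5 and 77.1 on the siGPR17 arrays, a log2 fold change of -0.61 (SE 0.15, adjusted p 0.23). Kcnmb4, the beta subunit known from neurons, had signals of 8087 and 9060 against 6998 and 6371, a log2 fold change of -0.36 (SE 0.11, adjusted p 0.27). In both beta subunit genes the groups did not overlap. For Kcnma1 the direction depended on the probe. The brighter one had signals of 106 and 87.6 against 114 and 129 (log2 fold change 0.33, adjusted p 0.34), and the other had 69.6 and 77.1 against 59.0 and 61.2 (log2 fold change -0.29).

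Of the inward rectifiers, 7 of 15 were tested, with a median of -0.03. At an unadjusted limma p under 0.05, 1 was lower and 1 higher (14.3% each, against 8.73% and 7.43% of all tested genes). Kcnj12, which encodes Kir2.2, had signals of 1975 and 1901 on the siNEG arrays and 2574 and 2565 on the siGPR17 arrays. The groups were apart with close replicates, and the log2 fold change was 0.41 (SE 0.09, adjusted p 0.21), between 0.38 and 0.54 over all alternatives. Kcnj14, which encodes the related Kir2.4, had signals of 739 and 798 against 834 and 953 (log2 fold change 0.22, interval -0.10 to 0.53). Kcnj11, the pore of the ATP-sensitive channel, had signals of 87.8 and 96.3 against 72.6 and 69.8 (log2 fold change -0.37, adjusted p 0.24), and -0.14 under normexp.

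Kcnj10 encodes Kir4.1, the main inward rectifier of mature oligodendrocytes and astrocytes. Its signals were 81.7 and 59.2 on the siNEG arrays and 73.3 and 63.6 on the siGPR17 arrays, so that the groups overlapped. The log2 fold change was -0.03 with an interval of -0.56 to 0.51, which does not settle a direction. Kcnj16, its usual partner, was well above background on no array. Kcnj3, which encodes a G protein-gated channel, had siNEG signals of 153 and 263 against 148 and 135, and its log2 fold change of -0.50 (SE 0.29, adjusted p 0.44) was -0.11 without the second siNEG array.

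Of the 2-pore-domain genes, which encode leak channels, 9 of 13 were tested, and their median of 0.17 was the only one of the 5 classes above 0. At an unadjusted limma p under 0.05, 1 was lower and 1 was higher (11.1% each, against 8.73% and 7.43% of all tested genes). Kcnk13, which encodes the halothane-inhibited channel THIK-1, had signals of 24.3 and 22.5 on the siNEG arrays and 35.3 and 45.5 on the siGPR17 arrays, a log2 fold change of 0.78 (SE 0.16, adjusted p 0.21). A dimmer probe of Kcnk13, well above background on 1 array only and not tested, had 15.8 and 18.3 against 9.13 and 9.80, the opposite order.

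Kcnk1, which encodes TWIK-1, had signals of 77.7 and 79.6 on the siNEG arrays and 63.8 and 65.2 on the siGPR17 arrays (log2 fold change -0.29, SE 0.09, adjusted p 0.26). Both groups were tight and did not overlap. A second tested probe of Kcnk1 was not well above background on any siGPR17 array (limma adjusted p 0.31). It was 2.10-fold lower there when the higher of its own signal and the lowest detected signal of each array was used. Probes that were not detected could be brighter, such as Kcnh5 at 16.3 and 16.9 on the siGPR17 arrays. The value of 2.10 is thus not a lower bound. Kcnk2, which encodes the mechanically gated TREK-1, had signals of 72.0 and 84.6 against 61.0 and 64.8 (log2 fold change -0.31, interval -0.64 to 0.02).

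Of 15 members with several tested probes, 12 had probes of 1 sign and 3 (Kcnh3, Kcnk6 and Kcnma1) had probes of both signs. The remaining 38 members could not be tested. Of these, 34 were well above background on no array and 4 on 1 array, among them 19 voltage-gated pore genes and 8 inward rectifiers. No member was well above background on both arrays of one group and on none of the other. Between 49 and 55 members were well above background per array.

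Genes that work with these channels were drawn from a list of 26, of which 21 were tested, 8 higher and 13 lower, with a median of -0.07. None passed the thresholds in limma. At an unadjusted limma p under 0.05, siGPR17 OPCs had more signal for 2 of the 21 and less for 5. Among all tested genes the matching shares were 7.43% and 8.73%. For the 13 with a log2 fold change below 0, the matching share of all tested genes was 48%. Abcc8, the sulfonylurea receptor that assembles with the product of Kcnj11, had signals of 542 and 668 on the siNEG arrays and 382 and 400 on the siGPR17 arrays, the same order as its pore gene, with a log2 fold change of -0.62 (SE 0.14, adjusted p 0.22). Dpp6, an auxiliary protein of Kv4 channels, had signals of 2137 and 2353 against 1710 and 1721 (log2 fold change -0.39, SE 0.10, adjusted p 0.23). Its relative Dpp10 was at -0.20 (adjusted p 0.34). In the Kv4 complex, the pore genes Kcnd2 and Kcnd3, the auxiliary Kcnip1 and Dpp6 were thus all lower at an unadjusted p under 0.05, while Kcnd1, Kcnip2, Kcnip3 and Dpp10 did not reach it.

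The sodium pump and the cotransporters, which move potassium against or along with other ions, were not of 1 direction. The pump subunit gene Atp1b1 had signals of 3493 and 3793 on the siNEG arrays and 3552 and 3366 on the siGPR17 arrays, which overlapped (log2 fold change -0.07), while Atp1b2 was at -0.32 (adjusted p 0.27). Among the potassium-chloride cotransporters, Slc12a7 had signals of 181 and 152 against 371 and 426, a log2 fold change of 1.26 (SE 0.14, adjusted p 0.21). This was a larger difference than that of any tested member with its brightest tested probe. The second tested probe of Kcnk1, not well above background on any siGPR17 array, gave -1.67. Slc12a5, the cotransporter known from neurons, was at -0.41 (adjusted p 0.22).

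**Figure D3:**
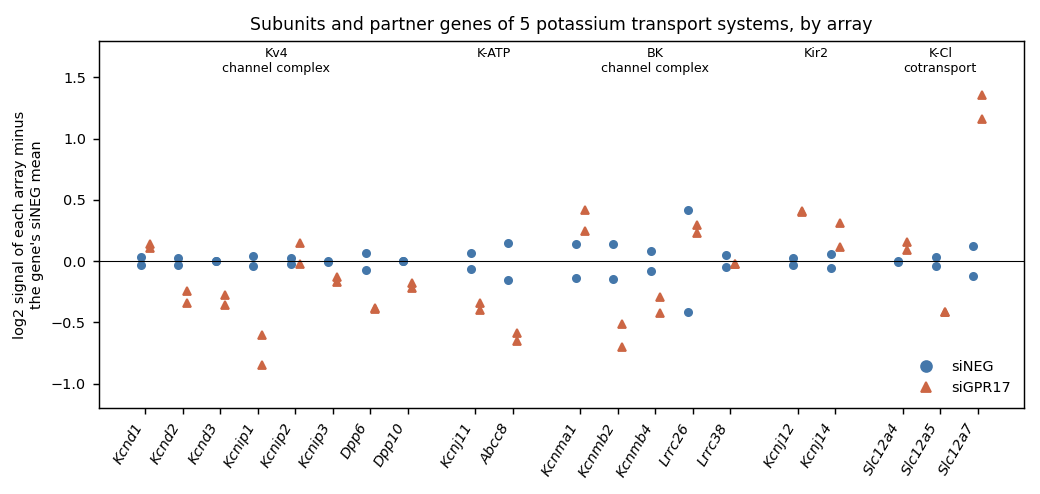
Log2 signal of each array minus the siNEG mean of the gene (vertical axis) for subunits and partner genes of 5 potassium transport systems, with siNEG arrays as circles and siGPR17 arrays as triangles, 2 each. Kcnip1, Kcnd2, Kcnd3 and Dpp6 lie below 0 together, as do Kcnj11 and Abcc8, while Slc12a7 lies above 1. Kcnma1 is drawn with its brighter probe (0.33), and its other tested probe, at -0.29, would lie below 0 with the beta subunits.

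In a bulk culture, fewer cells of a type and less RNA per cell cannot be told apart, and several of these channel genes are also used by neurons or astrocytes. The 8 oligodendrocyte lineage markers were well above background on all arrays, as the label of the culture says. Their mean signals were lower in siGPR17 OPCs in 7, such as Cspg4 at -0.48, and higher for Mbp at 0.32, and their summed signals overlapped (476347 and 550356 against 520748 and 537340). Of 5 neuron markers, 5 were tested and 5 had lower mean signals in siGPR17 OPCs, from Syt1 at -0.01 to Stmn2 at -0.48, with a summed signal of 2837 and 3278 on the siNEG arrays and 2703 and 2564 on the siGPR17 arrays. Of 5 astrocyte markers, 3 were lower and 2 higher, with Aqp4 at -1.35 and Gfap at -0.61 and a summed signal of 7488 and 8101 against 5994 and 5896. All 4 tested microglia markers of 5 had lower mean signals, but their sums overlapped (2983 and 1659 against 1716 and 2221), and Csf1r was well above background on no array. The neuron and astrocyte sums were lower, like the 16 lower members, and their part in those values was not tested. Most of each sum came from 1 gene, Slc1a3 in astrocytes (6967 and 7592 against 5672 and 5545) and Tubb3 in neurons (1844 and 2284 against 1846 and 1702, which overlapped), while the astrocyte markers Aldh1l1 and Gja1 were at 0.27 and 0.33. The endothelial markers Tek (log2 fold change 0.51, adjusted p 0.23) and Cdh5 (0.33, adjusted p 0.35) were detected on all 4 arrays and higher in siGPR17 OPCs without overlap, and Col1a1 of the mural and fibroblast list was detected on all 4 (0.43, adjusted p 0.59). The endothelial Pecam1 and Cldn5 and the mural and fibroblast Pdgfrb, Rgs5, Dcn and Lum were well above background on no array, and the summed signals of these lists were 135 and 122 against 155 and 168, and 58.3 and 36.3 against 63.0 and 47.7.

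**Figure D4:**
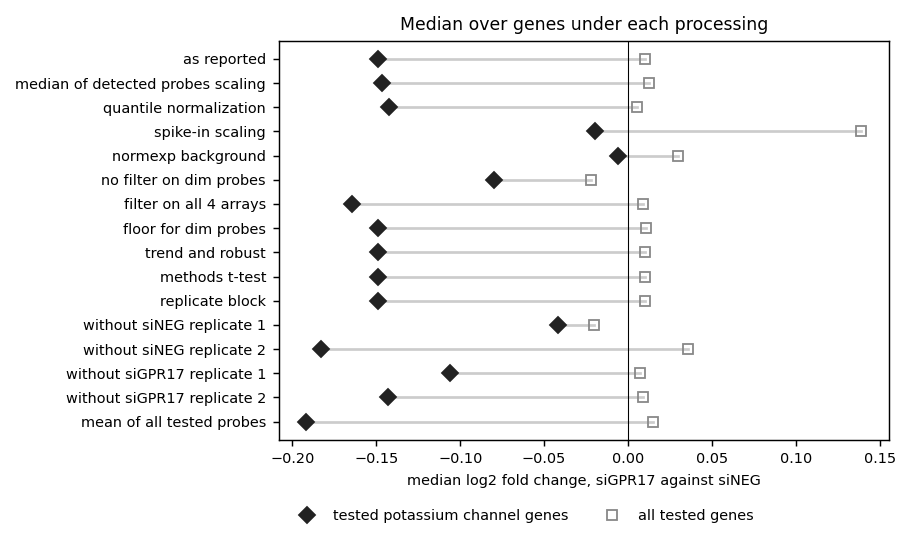
Median log2 fold change (horizontal axis) of the tested members (filled diamonds) and of all tested genes (open squares) under each processing, with 1 line for each. The members lie below all tested genes in every line, from -0.19 with the mean of all tested probes to -0.01 with normexp, and the gap to all genes is narrow under normexp and without the first siNEG array.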

How the data were processed

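Gene expression was measured on 4 one-color Agilent arrays, 2 siNEG and 2 siGPR17 samples, grouped by their labels. The authors deposited the intensity of each spot, background-corrected by Feature Extraction 10.7.3.1 according to the submitters' processing notes and not normalized between arrays, together with quality flags and the spot and background medians.

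From the deposited processed intensity, log2 values were computed and centred on the 75th percentile of the non-control probes of each array. Outlier spots were dropped and spots of a probe averaged. Probes well above background on 2 or more of 4 arrays (28016) were tested with limma 3.58.1 (lmFit and eBayes, two-sided, no block) in R 4.3.3, with Benjamini-Hochberg adjustment over all of them. The thresholds, a fold of 1.5 and an adjusted p under 0.07, are those of the study's methods. Probes were named through their RefSeq accession in a gene table of GRCr8 (21093 of 45598 matched), and the brightest tested probe stands for a gene. Of 97 Kcn genes in that table, 6 had no matched probe. Coordinates are given for upstream windows only, in GRCr8, and none is given for probes.

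The members, the lists and the rule for named genes were chosen with earlier results of these data known. Named were members with a fold of 1.5 and an unadjusted p under 0.05, the 3 with the smallest p of each class, subunits studied in the oligodendrocyte lineage, and members detected in 1 group only. Kcne2, Kcns1, Kcnh3, Kcnmb4, Kcnj3, Kcnd1, Kcnip2, Kcnip3 and Kcnk6 were added after their values were seen. The results of some genes are not reported here by themselves and are not drawn.

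The alternatives were other scalings (median, quantile, spike-in probes), normexp with an offset of 50 on the spot median, a filter on all 4 arrays or none, dim probes raised to a floor, the methods' t-test, limma with trend and robust options, a replicate block, the mean of all probes of a gene, and each array left out. Same-numbered samples did not deviate together over the probes (correlation -0.07). With 2 samples a group, this cannot exclude that the numbers pair them. Same-numbered samples also lay in the same row of the slide. The code was tested on simulated data.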

Additional observations from a re-analysis of the deposited data

How the results depend on the processing

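The count of members past the thresholds was 0 in limma and remained 0 under all alternatives except normexp (2) and the trend and robust options (4). Members with a fold of 1.5 and an unadjusted p under 0.05 numbered 8, but 5 with spike-in scaling (2 lower and 3 higher, against 6 and 2) and 2 with normexp (both lower), and between 8 and 10 when single arrays were left out. The median log2 fold change of the tested members was -0.15, but -0.020 with spike-in scaling and -0.0062 with normexp, and from -0.18 to -0.04 with each array left out. Gpr17 came to -0.66 (adjusted p 0.022) with normexp and stayed at -0.78 (adjusted p 0.015) with trend and robust, both past the thresholds, and lay between -0.80 and -0.77 with each array left out. With the replicate block, the count was again 8, the median -0.15 and the count past the thresholds 0, and the block changed no call at those thresholds. It left 11 members lower at an unadjusted p under 0.05, against 16, and spike-in scaling left 6, with 6 higher. The shares of all tested genes under the alternatives are not given, so that these member counts do not settle an excess over them. Of 25 named and tested genes, 21 kept 1 sign under all 15 alternatives. The exceptions were Kcna2, Kcna3, Kcna6 and Kcnj10. With single arrays left out, Kcna2 ranged from -0.36 to 0.012, Kcna3 from -0.32 to 1.06, Kcna6 from -0.14 to 0.11 and Kcnj10 from -0.26 to 0.21. Spike-in scaling gave Kcna6 0.11 and Kcnj10 0.10, and normexp gave Kcnj10 0.040. The cause was not tested. Signals near background limit the dim genes, such as Kcnc1, Kcng3 and Kcna3. Leaving out an array left a group with 1 sample, assumed to vary like the other group.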
